A study of Mus musculus with 36 samples.

Results

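The 29 genes described here encode the enzymes that make cholesterol, the proteins that set the rate of that synthesis and the proteins that move, esterify, oxidise or export sterols. They were taken from a list of gene symbols, and all 29 were found among the 50559 symbols of the count table. All 29 passed the filter on low counts, as did 25382 genes in all. By role, 7 members belong to the mevalonate arm, 11 to the squalene and sterol arm, 5 to the control of synthesis by SREBP and 6 to sterol handling.

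The study asked how early amyloid and tau pathology, alone or together, alter hippocampal transcripts in female mice aged 6 months. Bulk RNA sequencing covered 36 input fractions of both hippocampi. Control mice were PV_Cre;RiboTag+/-. Amyloid mice were APP;PV_Cre;RiboTag+/-, the tau line was Tau;PV_Cre;RiboTag+/-, and the double transgenic mice were APP/Tau;PV_Cre;RiboTag+/-, so every group, control included, carried the Cre driver (Pvalb-IRES-Cre) and the ribosome tag. APP is the Sw,Ind transgene of line J9 and Tau is the P301S transgene of line PS19, both on C57BL/6 and heterozygous in the parents. Naive mice stayed in the home cage, and trained mice learned a water maze for 5 days with 6 trials a day, had a probe test after 24 hours and were killed 2 hours later. All mice were handled on 3 days. The groups held 6 control, 5 APP, 4 Tau and 6 APP/Tau naive libraries, and 5 control, 3 APP, 4 Tau and 3 APP/Tau trained libraries. Each transgene was studied in 1 line, and the input fraction holds RNA of all hippocampal cells, not of the tagged parvalbumin neurons.

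Cholesterol is built from acetyl-CoA, first through mevalonate to farnesyl diphosphate and then through squalene and lanosterol. SREBP transcription factors switch these enzymes on when membranes are short of sterol. The adult brain makes its own cholesterol, because plasma lipoproteins do not cross the blood-brain barrier. Astrocytes pass sterol to neurons through ABC transporters, and neurons remove the surplus by hydroxylation.

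Library totals ran from 69150326 to 124787108 counts. The library labelled Tau trained replicate 4 went against its label. Prnp, whose promoter drives the PS19 transgene, stood at 1423 to 2142 CPM (counts scaled to a common library total) in the other 16 Tau-labelled libraries, at 846 CPM in that library and at 728 to 879 CPM in the 19 libraries without Tau. Usp16, which earlier results had shown to separate the APP labels, lay at 12.9 to 14.9 CPM in the 17 APP-labelled libraries and at 24.8 to 30.3 CPM in the others. Control trained replicate 4 stood apart by striatal markers (485 CPM summed over 9 genes, against 125 to 186 elsewhere). Hippocampal neuron markers were present in every library, at 3999 to 6743 CPM summed over 10 genes. Nothing in the labels says whether samples of a group are different mice, so a p-value here reflects only sample-to-sample spread, some of which may be technical.

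Every member was well counted, from 545 counts for Tm7sf2 in its lowest library to 30101 for Hmgcs1 in its highest. Per kilobase of exon, in the 6 control naive libraries, the most abundant members were Cyp46a1, the neuronal enzyme that hydroxylates cholesterol for removal, at 63.8 ± 3.84 CPM per kb (mean ± SD, n = 6) and Hmgcs1, the cytosolic HMG-CoA synthase, at 61.0 ± 3.84. These values differed by less than their spread. Srebf2, the SREBP gene that mainly drives cholesterol enzymes, came next at 39.7 ± 2.29, ahead of Msmo1, a sterol methyl oxidase, at 30.5 ± 2.85. The lowest were Soat1, which esterifies cholesterol, at 2.85 ± 0.217, Abca1, a pump that loads sterol onto lipoproteins, at 4.10 ± 0.611, and Hsd17b7, a sterol ketoreductase, at 4.23 ± 0.414. Acat2, the first enzyme of the path, has a near-identical neighbouring copy, so its count is uncertain.

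Across the 36 libraries the members varied little. The highest library exceeded the lowest by 1.23-fold for Srebf2 and for Insig2, a retention protein of the SREBP system, and by 2.05-fold for Fdps, the farnesyl diphosphate synthase. Abca1 spanned 34.1 to 67.6 CPM, a 1.98-fold range, and Stard4, a soluble sterol carrier, spanned 18.8 to 37.0 CPM, a 1.97-fold range.

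Within groups the synthesis enzymes moved together from library to library. Each library's log2 CPM was taken as a deviation from its group mean, and deviations were correlated over the 36 libraries. These values are a description, since all genes of a library share its RNA, its depth and its scaling. The mean Pearson r over the 153 pairs of the 18 synthesis enzymes was 0.42, and 140 pairs were above 0. Over all pairs of tested genes the mean was 0.00083. The scaling of each library pulls that mean towards 0, and it includes genes counted far less than the members. It is therefore no measure of how unusual 0.42 is among well-counted genes. Within the mevalonate arm all 21 pairs were positive, with a mean of 0.53, and pairs that cross the arms averaged 0.46.

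The pairs with the highest r were all pairs of synthesis enzymes. Hmgcs1 and Idi1, the isopentenyl diphosphate isomerase, had r = 0.89 (Spearman rho 0.83, and r = 0.84 without the 2 libraries farthest from the Hmgcs1 median). Fdft1, the squalene synthase, and Sqle, the squalene epoxidase, had r = 0.89 (rho 0.85, and 0.87 without the 2 farthest libraries). Cyp51, which demethylates lanosterol, had r = 0.88 with Idi1 (rho 0.90, and 0.87 without 2) and r = 0.84 with Hmgcs1 (rho 0.82, and 0.80 without 2). Hmgcs1 and Msmo1 had r = 0.84 (rho 0.80, and 0.80 without 2). The enzymes least tied to the rest were Tm7sf2, a sterol reductase, with a mean r of 0.095 over the other 17 enzymes, and Sc5d, a sterol desaturase, with 0.12. Msmo1 was the most tied, with 0.60.

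**Figure D1:**
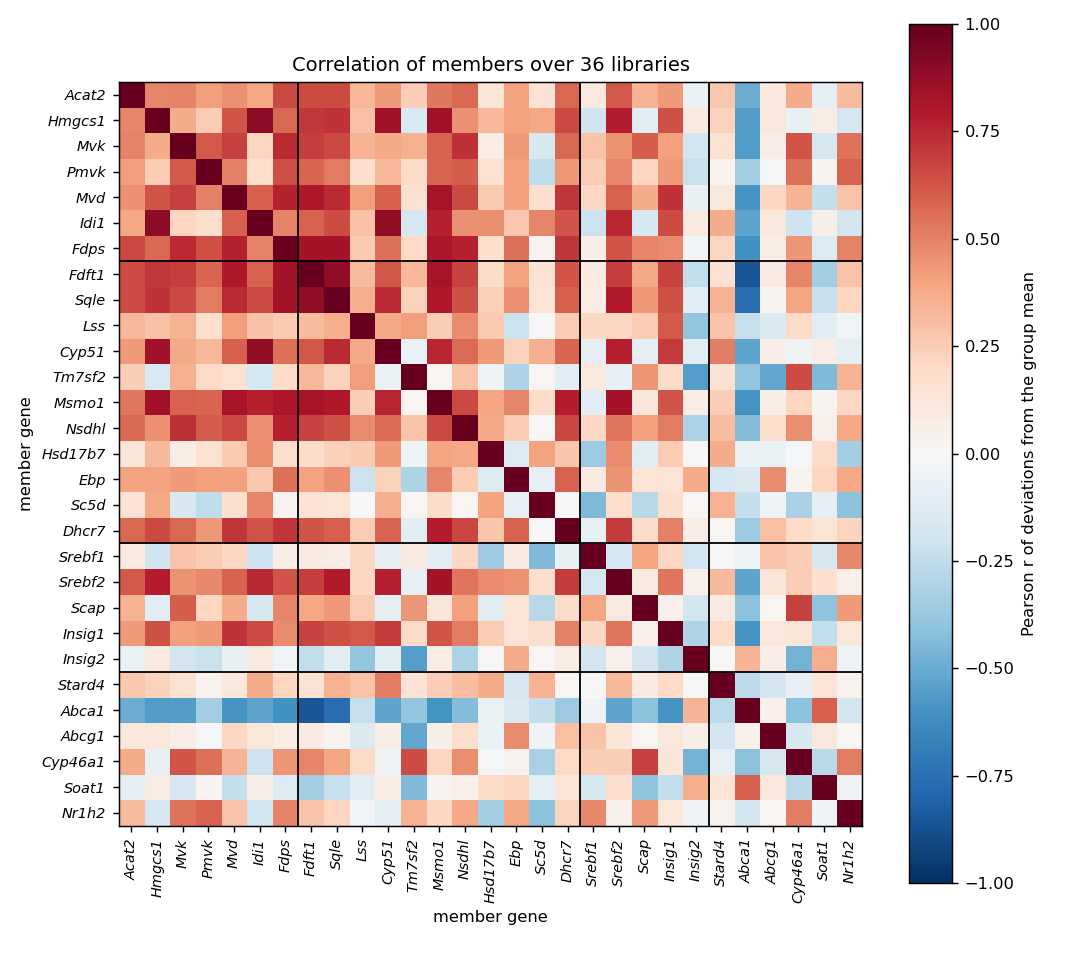
Pearson r of the members' deviations from the group mean (log2 CPM) over 36 libraries, both axes listing the 29 genes in the order mevalonate arm, squalene and sterol arm, SREBP control and sterol handling, with black lines between the 4 roles. Red blocks among the enzymes reflect 140 positive pairs of 153, and the blue stripe is Abca1.

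The regulators divided. Srebf2 followed the enzymes, with a mean r of 0.55 over the 18 and 17 of 18 above 0, and so did Insig1, itself a target of SREBP that restrains it, with 0.49 and 18 of 18 above 0. Srebf1, which mainly drives fatty acid synthesis, had a mean r of 0.0085, and Insig2 one of -0.086. Scap lay between these 2 and Insig1, with a mean r of 0.20 and 13 of 18 above 0. Abca1 lay opposite to the enzymes, with a mean r of -0.46 and 0 of 18 above 0. The lowest of all member pairs, chosen after their values were seen, was Fdft1 with Abca1, at r = -0.86 (rho -0.84, and -0.83 without the 2 libraries farthest from the Fdft1 median). Sqle with Abca1 followed at -0.76.

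Microglial markers went with Abca1 in the libraries where both were highest. The 6 libraries with the highest microglia scores (mean log2 CPM of 10 markers) were also the 6 with the highest Abca1, a match noticed after the values were seen, and all 6 are labelled Tau or APP/Tau. Their microglial sums were 897, 797, 841, 746, 607 and 526.3 CPM, with Abca1 at 59.7, 65.1, 67.6, 63.8, 53.8 and 53.3 CPM. The match ended there. APP trained replicate 2 and control trained replicate 4, ranked 7 and 8 by score, ranked 34 and 29 for Abca1 (39.0 and 42.5 CPM). Without the 4 libraries of highest score, an alternative chosen after seeing the data, the mean r of the enzyme pairs was 0.36, that of Abca1 with the enzymes was -0.33 and that of Fdft1 with Abca1 was -0.79. With the microglia score removed in all 36 libraries these were 0.43, -0.44 and -0.85. With the gene-length slope of each library removed, they were 0.44, -0.43 and -0.83.

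**Figure D2:**
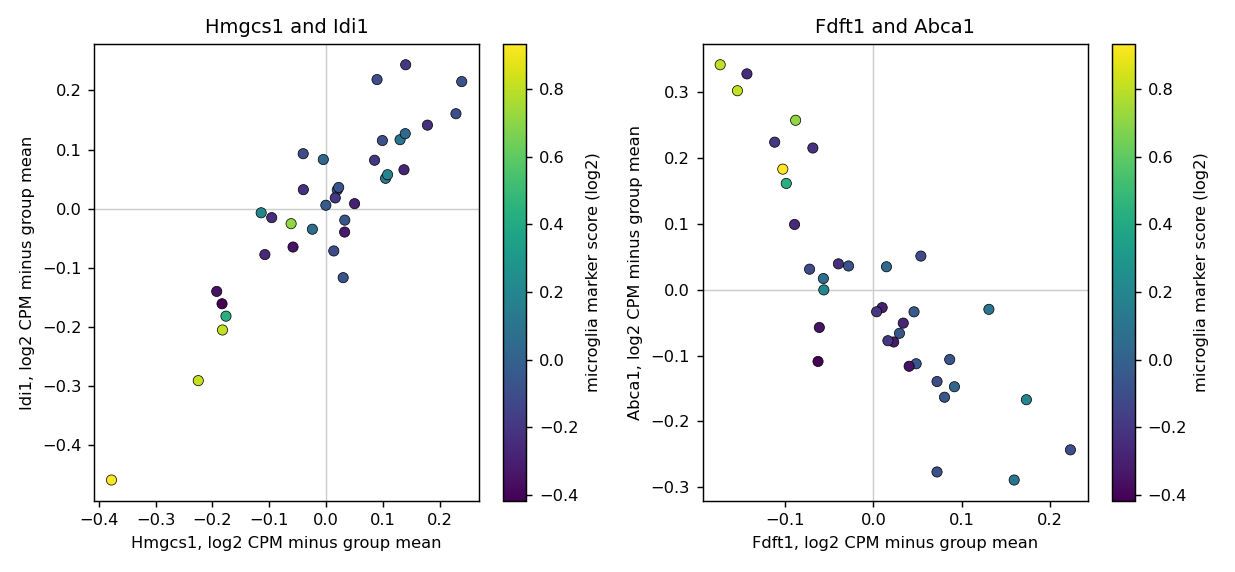
Deviations from the group mean (log2 CPM) of Hmgcs1 against Idi1 (left) and of Fdft1 against Abca1 (right), 1 point per library (36), coloured by the microglia marker score (log2). The points rise together on the left (r = 0.89) and run opposite on the right (r = -0.86), and the 4 libraries of highest score lie below 0 for Hmgcs1 and for Fdft1.

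Promoters of 4 enzymes from the tightest pairs and of Abca1 are shown because these genes moved together or opposite. RefSeq windows on GRCm38.p6, from 250 bases before to 50 after the start of transcription, matched 24 of the 29 members, and 15 of the 18 enzymes. Capitals mark the sterol regulatory element TCACNCCAC and the CCAAT box CCAAT, searched on both strands (GTGGNGTGA and ATTGG), and no capital run holds overlapping motifs. Sequences run 5′ to 3′ on the strand of the gene.
Hmgcs1, chr13:119690101-119690400, + strand: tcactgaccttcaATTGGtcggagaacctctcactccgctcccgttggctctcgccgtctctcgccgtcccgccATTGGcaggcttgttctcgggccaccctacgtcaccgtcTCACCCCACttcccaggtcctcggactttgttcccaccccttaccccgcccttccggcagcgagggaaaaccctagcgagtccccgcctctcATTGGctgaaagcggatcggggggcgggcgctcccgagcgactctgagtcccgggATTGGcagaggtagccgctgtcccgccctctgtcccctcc
Idi1, chr13:8885356-8885655, + strand: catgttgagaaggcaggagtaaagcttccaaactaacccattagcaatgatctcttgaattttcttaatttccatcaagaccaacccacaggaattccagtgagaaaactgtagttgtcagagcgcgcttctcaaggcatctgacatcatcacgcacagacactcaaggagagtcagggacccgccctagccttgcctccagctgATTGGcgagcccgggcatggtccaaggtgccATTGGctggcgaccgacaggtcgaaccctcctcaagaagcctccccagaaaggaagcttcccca
Cyp51, chr5:4104648-4104947, - strand: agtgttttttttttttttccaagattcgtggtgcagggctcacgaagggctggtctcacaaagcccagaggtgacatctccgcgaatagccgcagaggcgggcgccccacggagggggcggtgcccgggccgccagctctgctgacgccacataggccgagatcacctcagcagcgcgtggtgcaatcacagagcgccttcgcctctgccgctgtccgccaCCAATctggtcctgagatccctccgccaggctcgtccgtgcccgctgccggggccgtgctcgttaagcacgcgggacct
Msmo1, chr8:64733529-64733828, - strand: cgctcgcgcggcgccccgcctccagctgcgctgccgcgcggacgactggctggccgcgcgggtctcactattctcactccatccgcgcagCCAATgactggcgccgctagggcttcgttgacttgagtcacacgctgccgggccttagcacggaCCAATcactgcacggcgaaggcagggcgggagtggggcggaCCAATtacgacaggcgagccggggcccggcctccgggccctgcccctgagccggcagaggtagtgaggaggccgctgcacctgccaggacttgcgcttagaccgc
Abca1, chr4:53159846-53160145, - strand: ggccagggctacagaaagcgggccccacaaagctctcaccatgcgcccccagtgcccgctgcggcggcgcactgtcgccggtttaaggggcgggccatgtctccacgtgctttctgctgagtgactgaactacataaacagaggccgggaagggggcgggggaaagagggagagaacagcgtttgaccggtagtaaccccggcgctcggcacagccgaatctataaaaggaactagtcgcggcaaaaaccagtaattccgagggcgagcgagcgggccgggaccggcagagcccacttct

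The Hmgcs1 window held an exact match to the sterol regulatory element 137 bases before the start, and no other member's window held one. Of all 32851 windows, 1.24% held one. Variants of the element were not searched, so windows without an exact match may still hold a working element. Fdps, Fdft1, Sqle, Stard4 and Abcg1 had no window to search. The CCAAT box, bound by NF-Y, a partner of SREBP, was in 14 of the 15 enzymes with a window and in 20 of the 24 members with one, against 41.1% of all genes with a window. In the printed windows it occurred 4 times in Hmgcs1, 3 times in Msmo1, 2 times in Idi1, 1 time in Cyp51 and 0 times in Abca1. The DR4 element, the direct repeat to which LXR binds, searched as an exact match on both strands, was in 0.0152% of all windows and in no member's window. Imperfect forms of this repeat were not searched either, so windows of members, that of Abca1 included, may still hold a working one. An exact match is so rare that its absence from the members' windows says little. All these motif results are matches of letters within the windows and show no binding.

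No member changed between groups by the main test. In each of 18 contrasts 0 of 29 members passed an adjusted p of 0.05 (edgeR quasi-likelihood test, Benjamini-Hochberg over all 25382 genes), beside 0 to 212 genes called over the whole table. DESeq2 called 0 members in 17 contrasts and 1, Abca1, in Tau carriers. Members with an unadjusted p under 0.05 numbered 0 to 8. In these bulk samples, fewer cells of a type and less RNA per cell cannot be told apart. The 3 comparisons of transgenic mice with control in each training state share the control libraries, so their values are given side by side. Unadjusted p-values are used below only to describe. In alternative fits, with a library left out or a covariate added, the share of all genes with such a p was not computed. A shift in the count of members there may thus not be particular to the members.

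**Figure D3:**
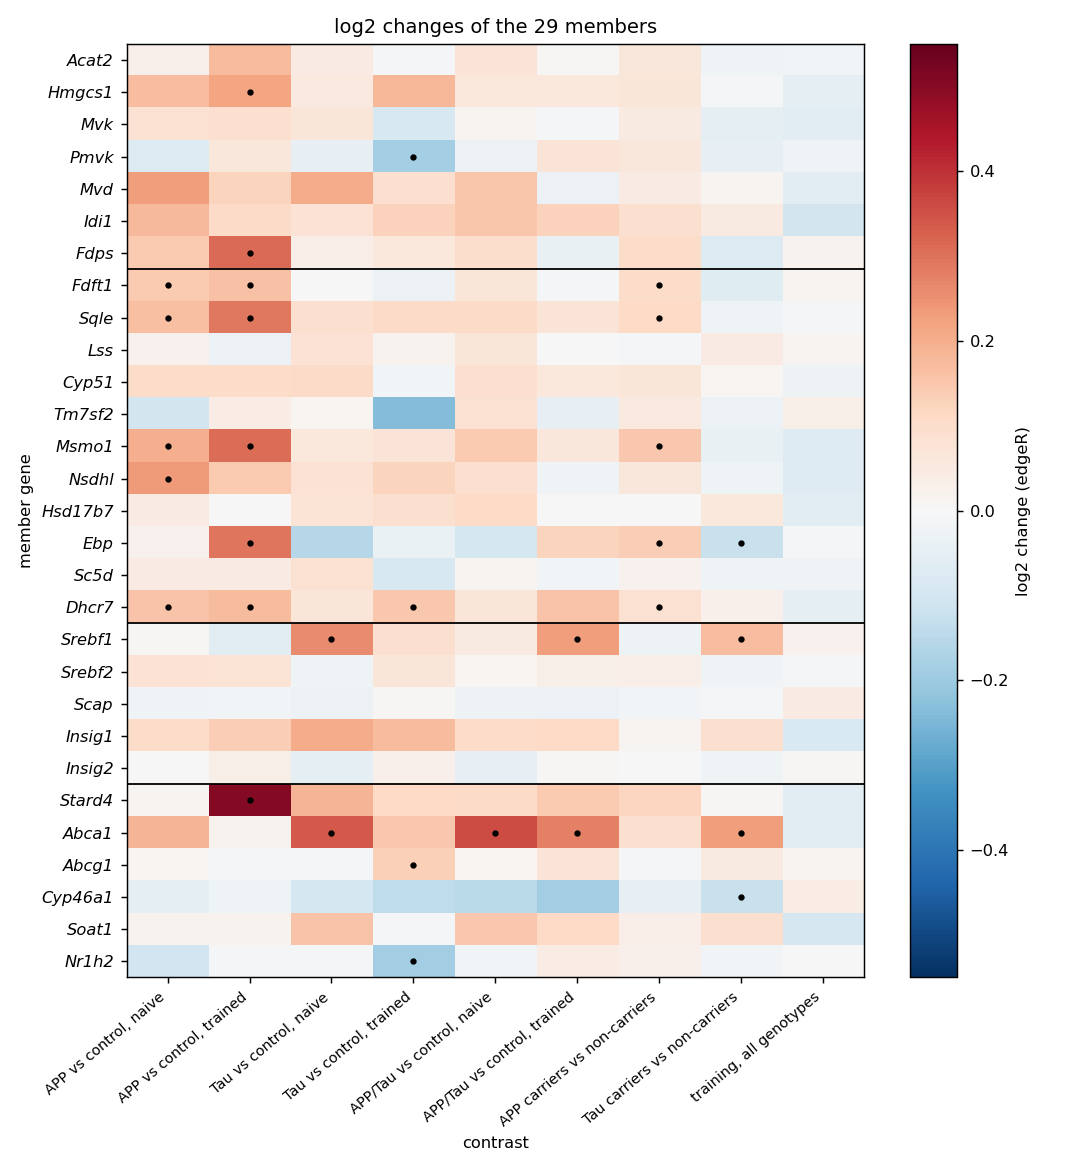
log2 changes of the 29 members (vertical axis, in the order of the 4 roles, black lines between them) in 9 contrasts (horizontal axis), from blue (lower) to red (higher), with a black dot at an unadjusted p under 0.05. No cell passed the adjusted threshold. For APP against control 16 of 18 enzymes in naive and 17 of 18 in trained mice are above 0, and the enzymes are not independent of each other. For Tau these counts are 15 and 10 of 18, and for APP/Tau 16 and 11 of 18.

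In naive APP mice most enzymes lay above control by small amounts. The log2 change was above 0 for 16 of the 18 enzymes, with a median of 0.12, and for 23 of 29 members, beside 47.1% of all genes. The enzymes moved together within groups (mean r 0.42). Counts of enzymes or members on 1 side of 0, here and in later contrasts, are therefore not counts of independent observations. No member was called (0.0355% of all genes were), and 5 members, all enzymes, had an unadjusted p under 0.05 in the higher direction (1.62% of all genes). Most enzymes lay above the same control libraries in the other naive genotypes too. In Tau 15 of 18 were above 0 (median 0.066), and in APP/Tau 16 of 18 (median 0.077).

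Nsdhl, which removes a methyl group from sterols, lay at 19.8, 16.4, 18.3, 19.6 and 18.9 CPM in the 5 APP naive libraries and at 14.7 to 18.5 CPM (median 15.05) in the 6 controls. The ranges overlapped through the highest control, and the log2 change was 0.23 (SE 0.076, edgeR adjusted p = 1.00). Dhcr7, the reductase of the last step, had 33.7, 27.8, 29.5, 29.7 and 31.1 CPM against 24.8 to 29.2 (median 27.7), a log2 change of 0.16 (SE 0.065, edgeR adjusted p = 1.00). Fdft1 had 92.8, 85.9, 91.2, 85.0 and 92.3 CPM against 73.0 to 90.1 (median 80.1), a log2 change of 0.15 (SE 0.064, edgeR adjusted p = 1.00). Hmgcs1 was the 1 member whose groups did not overlap (0.126% of all genes in that direction). Its APP libraries lay at 241, 235, 245, 233 and 242 CPM, above every control (197 to 232, median 214).

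In trained APP mice most enzymes also lay above control. Of 18 enzymes 17 were above 0, with a median of 0.13, and of 29 members 23 were (52.3% of all genes). No member was called (0.0276% of all genes), while 8 had an unadjusted p under 0.05, all higher (3.64% of all genes). The groups of Sqle, Ebp and Stard4 did not overlap, with APP higher (1.24% of all genes).

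Stard4 lay at 32.97, 32.1 and 37.0 CPM in APP and at 19.6, 24.1, 28.1, 26.8 and 21.5 CPM in control, a log2 change of 0.51 (SE 0.15, edgeR adjusted p = 0.694). Ebp, a sterol isomerase, lay at 11.3, 14.5 and 12.2 CPM against 10.0, 8.88, 11.0, 11.1 and 10.4, a log2 change of 0.30 (SE 0.093, edgeR adjusted p = 0.694). Sqle lay at 58.7, 72.7 and 60.4 CPM against 49.6, 49.9, 52.7, 58.6 and 50.5, a log2 change of 0.29 (SE 0.092, edgeR adjusted p = 0.694). In Ebp and Sqle the margin between the groups was under 1 CPM, and APP trained replicate 2 was the highest library.

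That replicate weighed on the enzymes. It also had the most negative slope of expression on gene length of all libraries (-0.12 log2 CPM per doubling of length, where the others ran from -0.10 to 0.049). Without it 14 of 18 enzymes were above 0, with a median of 0.075, and 1 member in place of 8 had an unadjusted p under 0.05. Sqle then had a log2 change of 0.19 and Ebp one of 0.19, while Stard4 had 0.54. Without control trained replicate 4, the library with striatal markers, 10 members had an unadjusted p under 0.05 and the median of the enzymes was 0.20.

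**Figure D4:**
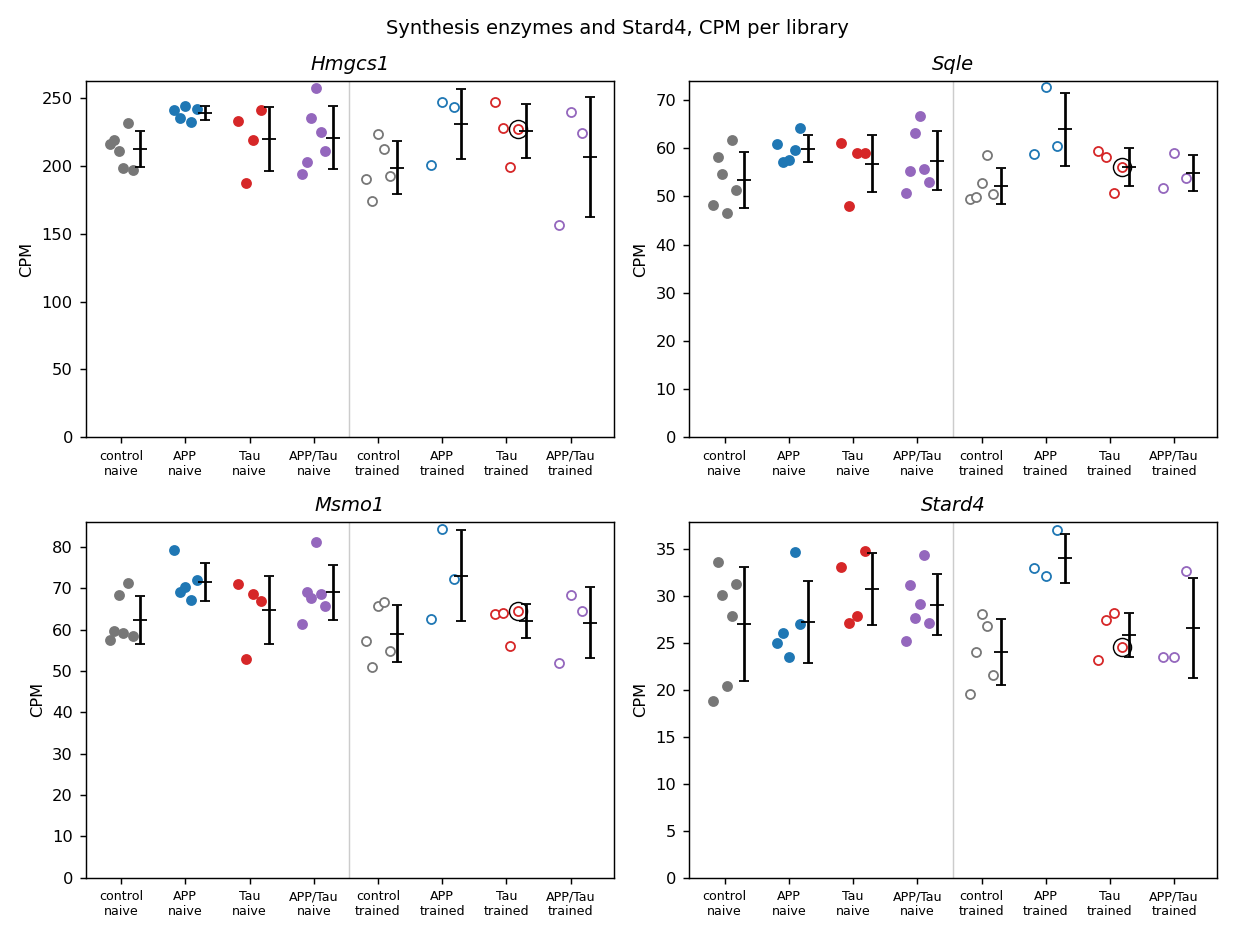
CPM per library of Hmgcs1, Sqle, Msmo1 and Stard4 in the 8 groups, filled points for naive and open points for trained, with mean and SD (bars) beside them and the library labelled Tau trained replicate 4 ringed. The APP naive points of Hmgcs1 lie above every control naive point, and the APP trained points of Sqle and Stard4 lie above every control trained point.

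Averaged over the 8 groups, APP carriers (APP and APP/Tau) against non-carriers had 16 of 18 enzymes above 0 with a median of 0.065, and 23 of 29 members above 0 (52.5% of all genes) with a median of 0.052, where the median of all genes was 0.0052. No member was called (0.0985% of all genes), and 5 had an unadjusted p under 0.05, all higher (5.41% of all genes). Msmo1 lay at 52.0 to 84.4 CPM (median 68.7) in 17 carriers and at 50.9 to 71.2 CPM (median 63.7) in 19 non-carriers, a log2 change of 0.15 (SE 0.050, edgeR adjusted p = 0.314). Ebp lay at 8.82 to 14.5 CPM (median 11.3) against 8.88 to 12.9 (median 10.4), a log2 change of 0.13 (SE 0.044, edgeR adjusted p = 0.296). Fdft1 had 0.10 (SE 0.037, edgeR adjusted p = 0.341). The carriers and non-carriers overlapped over most of their range in all 3 genes.

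Choroid plexus markers moved with the APP label. The choroid plexus sum over 12 genes, none of them at 0, ran from 210 to 6735 CPM (median 3186) in all APP carriers. In non-carriers of APP it ran from 193 to 5822 CPM (median 350). With the choroid plexus score as a covariate, the members with an unadjusted p under 0.05 went from 5 to 1 in naive APP mice, from 8 to 5 in trained APP mice and from 5 to 4 in carriers, and the median of the enzymes was 0.062, 0.099 and 0.051. In carriers 16 of 18 enzymes were above 0 with this covariate too. Microglial markers also lay above 0 in APP carriers, 10 of 10 with a median of 0.14, and none was called. With the microglia score as a covariate 17 of 18 enzymes were above 0 in carriers, with a median of 0.077, and 7 members had an unadjusted p under 0.05. Of 10 endothelial markers all 10 were above 0 against control in naive APP mice (median 0.16), in trained APP mice (median 0.28) and in carriers (median 0.19), and none was called. Their sum ran from 123 to 196 CPM in carriers and from 61.1 to 178 CPM in the others, and their part in the enzyme values was not tested. The lowest sum was that of control trained replicate 5, and without it the enzymes had a median of 0.13 in trained APP mice and 6 members had an unadjusted p under 0.05.

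In Tau carriers the members nearest to a call were Abca1, a gene of sterol export, and Srebf1, a gene of SREBP control. Their roles as a whole moved little. Of SREBP control 2 of 5 members were above 0 (median -0.013), and of sterol handling 4 of 6 (median 0.029). Tau and APP/Tau against non-carriers gave 12 of 29 members above 0 (47.0% of all genes) and a median of -0.017. No member was called (0.835% of all genes), and 4 had an unadjusted p under 0.05, 2 in each direction (7.29% of all genes higher and 5.87% lower).

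Abca1 lay at 42.9 to 67.6 CPM (median 49.9) in the 17 Tau-labelled libraries and at 34.1 to 52.3 CPM (median 44.6) in the 19 others. The log2 change was 0.23 (SE 0.061, edgeR adjusted p = 0.0585), and 0.23 (edgeR adjusted p = 0.0635) without Tau trained replicate 4. DESeq2 called it (log2 change 0.23, adjusted p = 0.0188). Srebf1 lay at 48.7 to 69.4 CPM (median 56.2) against 41.6 to 63.8 (median 50.3), a log2 change of 0.17 (SE 0.053, edgeR adjusted p = 0.113), and 0.18 without that replicate. Both genes overlapped between carriers and non-carriers.

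Ebp lay lower in Tau carriers, at 8.82 to 12.0 CPM (median 10.7) against 8.88 to 14.5 (median 11.3), a log2 change of -0.12 (SE 0.045, edgeR adjusted p = 0.196). Cyp46a1 lay at 104 to 148 CPM (median 124) in carriers and at 115 to 173 CPM (median 134) in non-carriers.

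Glial markers moved with the Tau label. Of 12 oligodendrocyte markers 10 were called higher in Tau carriers, with sums of 3598 to 6349 CPM (median 5699) against 3130 to 5636 (median 4381). Of 10 microglial markers 8 were above 0 and none was called, with sums of 365 to 897 CPM (median 426) against 342 to 502 (median 422). None of either list was at 0 in any group. With the microglia score as a covariate the log2 change of Abca1 was 0.14 (edgeR adjusted p = 0.359) and that of Srebf1 0.11 (edgeR adjusted p = 0.440). With the oligodendrocyte score they were 0.20 (edgeR adjusted p = 0.544) and 0.071 (edgeR adjusted p = 0.728).

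**Figure D5:**
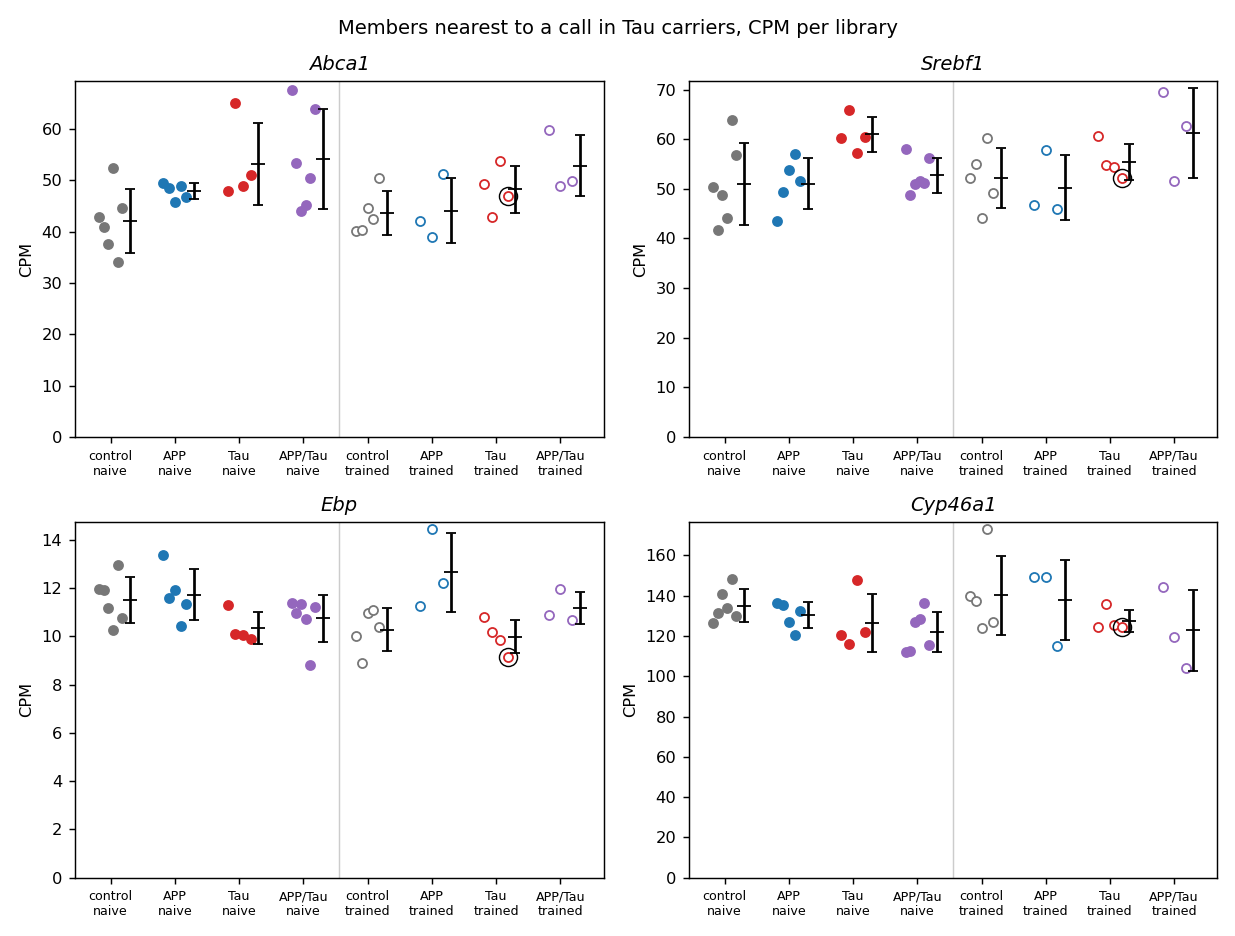
CPM per library of Abca1, Srebf1, Ebp and Cyp46a1 in the 8 groups, filled points for naive and open points for trained, with mean and SD (bars) beside them and the library labelled Tau trained replicate 4 ringed. The 4 highest Abca1 points, from 59.7 to 67.6 CPM, are Tau or APP/Tau libraries, and every Tau group overlaps control.

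Abca1 had the smallest p of the members in 3 of the 4 single comparisons of Tau or APP/Tau with control. In naive mice it lay at 47.9, 65.1, 48.8 and 50.9 CPM in Tau and at 44.0 to 67.6 CPM (median 51.9) in APP/Tau, against 34.1 to 52.3 CPM (median 41.8) in control. The log2 change was 0.34 in Tau (SE 0.11, edgeR adjusted p = 0.412) and 0.36 in APP/Tau (SE 0.10, edgeR adjusted p = 0.479). In trained APP/Tau mice it lay at 59.7, 48.9 and 49.9 CPM against 40.0, 40.2, 44.6, 42.5 and 50.4 in control, a log2 change of 0.28 (SE 0.13, edgeR adjusted p = 0.460). All 10 microglial markers were above 0 in that comparison (median 0.62, none called), and with the microglia score as a covariate Abca1 had 0.14. In trained Tau mice Abca1 lay at 49.2, 42.9, 53.8 and 47.0 CPM, overlapping the same controls, with a log2 change of 0.15 (SE 0.12, edgeR adjusted p = 0.594). Leaving out Tau naive replicate 2 gave the lowest Tau value in naive mice, 0.23.

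Of 29 members 20 were above 0 in naive Tau mice (49.8% of all genes) and 23 in naive APP/Tau mice (50.4%). Naive Tau mice had 2 members with an unadjusted p under 0.05, both higher (4.87% of all genes), and no call (0.0276%). Srebf1 lay at 60.2, 65.9, 57.3 and 60.5 CPM against 41.6 to 63.8 (median 49.5), a log2 change of 0.26 (SE 0.098, edgeR adjusted p = 0.448). Insig1 had 0.21 (SE 0.11, edgeR adjusted p = 0.571). Naive APP/Tau mice had 1 such member, Abca1 (3.82% of all genes higher), and no call (0.0670%). Cyp46a1 there had a log2 change of -0.15 (SE 0.079, edgeR adjusted p = 0.695), and Msmo1 one of 0.15 (SE 0.084, edgeR adjusted p = 0.708).

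Trained Tau mice had 18 of 29 members above 0 (50.0% of all genes), no call (0.303% of all genes) and 4 members with an unadjusted p under 0.05, 2 in each direction (6.64% higher and 8.60% lower). Pmvk, the phosphomevalonate kinase, lay at 21.8, 21.2, 22.2 and 22.5 CPM, below every control (24.6, 23.2, 25.6, 28.1 and 23.3), with a log2 change of -0.19 (SE 0.068, edgeR adjusted p = 0.174), and -0.20 without replicate 4. Sc5d also lay below every control, so 2 members did not overlap in that direction (4.04% of all genes). Abcg1, a sterol pump that acts beside Abca1, had 0.13 (SE 0.054, edgeR adjusted p = 0.228), and 0.17 without replicate 4. Nr1h2, which encodes the sterol sensor LXR beta, had -0.19 (SE 0.082, edgeR adjusted p = 0.251), and -0.17 without it.

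Trained APP/Tau mice had 20 of 29 members above 0 (48.0% of all genes), no call (0.0552% of all genes) and 2 members with an unadjusted p under 0.05, both higher (6.82% of all genes). Srebf1 had a log2 change of 0.23 (SE 0.11, edgeR adjusted p = 0.477), at 69.4, 51.6 and 62.7 CPM against 52.3, 54.9, 44.1, 60.2 and 49.2. With the oligodendrocyte score as a covariate this value was 0.087. Dhcr7 had 0.16 (SE 0.078, edgeR adjusted p = 0.496). In this comparison 11 of 18 enzymes were above 0, with a median of 0.0047.

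No member was called with training in any genotype, and no gene of the whole table was (0%, edgeR). Members above 0 numbered 12 of 29 in control mice (47.9% of all genes), 16 in APP mice (54.1%), 10 in Tau mice (47.7%) and 9 in APP/Tau mice (51.1%). In control mice 1 member had an unadjusted p under 0.05, lower (2.81% of all genes). This was Ebp, with trained libraries at 10.0, 8.88, 11.0, 11.1 and 10.4 CPM and naive ones at 10.3 to 12.9 (median 11.5), a log2 change of -0.16 (SE 0.079, edgeR adjusted p = 0.845). In APP mice 1 member did, Stard4 (3.42% of all genes higher), with trained libraries at 32.97, 32.1 and 37.0 CPM and naive ones at 24.97, 26.01, 23.5, 34.7 and 27.03, a log2 change of 0.32 (SE 0.15, edgeR adjusted p = 0.925). The naive and trained libraries overlapped in both genes.

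In Tau mice 2 members had an unadjusted p under 0.05, both lower (7.75% of all genes). Pmvk lay at 21.8, 21.2, 22.2 and 22.5 CPM after training and at 23.8, 24.6, 27.1 and 24.3 CPM in naive mice, a log2 change of -0.18 (SE 0.071, edgeR adjusted p = 0.211), and -0.19 without replicate 4. Pmvk and Soat1 did not overlap, trained lower (5.07% of all genes). Soat1 had -0.21 (SE 0.11, edgeR adjusted p = 0.363), -0.18 without replicate 4, -0.14 without Tau naive replicate 2 and -0.054 when the number in each library's name was added as a covariate. Idi1 did not overlap in APP mice, trained lower (1.20% of all genes), with 15.6, 17.9 and 18.2 CPM in trained libraries and 18.4, 18.8, 19.04, 20.6 and 19.7 CPM in naive ones. In APP/Tau mice no member had an unadjusted p under 0.05, while 3.07% of all genes did, in either direction. Srebf1 came nearest there, at 0.22 (SE 0.11, edgeR adjusted p = 1.00), with 0.12 without APP/Tau trained replicate 1 and 0.33 without APP/Tau trained replicate 2.

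Choroid plexus markers separated naive from trained Tau mice, with sums of 2255 to 5822 CPM in naive and 298 to 1029 CPM in trained libraries. In that contrast 5 of 18 enzymes were above 0, with a median of -0.043. With the choroid plexus score as a covariate 11 of 18 were above 0, with a median of 0.020, and no member had an unadjusted p under 0.05. With the library number as a covariate 11 of 18 were above 0 too, with a median of 0.027. Over all genotypes 9 of 29 members were above 0 with training (51.0% of all genes), with a median of -0.019, and none had an unadjusted p under 0.05 (7.95% of all genes). Idi1 came nearest, at -0.10 (SE 0.053, edgeR adjusted p = 0.640), with -0.057 without APP/Tau trained replicate 1 and -0.051 with the library number as a covariate.

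Non-additivity compares the double transgenic with the sum of the single ones. It reuses the libraries of the comparisons with control above, so its values are not separate from theirs. In both training states most enzymes lay below additivity, 15 of 18 in naive mice (median -0.11) and 14 of 18 in trained mice (median -0.14). With the choroid plexus score as a covariate 11 of 18 did in naive mice, with a median of -0.025. Of all 29 members 8 were above 0 in each state (50.8% and 50.0% of all genes). No member was called in naive mice (0%) or in trained mice (0.0118% of all genes). In naive mice none had an unadjusted p under 0.05 (7.13% of all genes), and Nsdhl came nearest, at -0.22 (SE 0.11, edgeR adjusted p = 0.715). In trained mice 6 did, all lower (4.63% of all genes). Sqle had -0.32 (SE 0.13, edgeR adjusted p = 0.492), Fdps -0.41 (SE 0.18, edgeR adjusted p = 0.509) and Hmgcs1 -0.34 (SE 0.15, edgeR adjusted p = 0.512). The Fdps libraries of trained APP mice were 39.3, 60.3 and 38.0 CPM, so that 1 library, APP trained replicate 2, stood far above the other 2. Without it Fdps had -0.17, Sqle -0.22 and the enzymes a median of -0.066, and 3 members in place of 6 had an unadjusted p under 0.05. Without APP/Tau trained replicate 1 Hmgcs1 had -0.17, the enzymes a median of -0.082, and 1 member such a p. Without control trained replicate 2 the median of all 29 members was -0.040 in place of -0.087, and 2 members had such a p.

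The interaction of genotype with training gave no call of a member and none over the whole table (0%). Members above 0 numbered 17 of 29 for APP (54.9% of all genes), 13 for Tau (48.6%) and 10 for APP/Tau (50.4%). For APP, 2 members had an unadjusted p under 0.05, both higher (1.66% of all genes). Stard4 had an interaction of 0.49 (SE 0.20, edgeR adjusted p = 1.00) and Ebp one of 0.27 (SE 0.12, edgeR adjusted p = 1.00), which was 0.17 without APP trained replicate 2. For Tau and for APP/Tau no member did (9.04% and 4.14% of all genes in either direction). Abcg1 came nearest for Tau, at 0.14 (SE 0.075, edgeR adjusted p = 0.575), and Ebp for APP/Tau, at 0.22 (SE 0.12, edgeR adjusted p = 0.981).

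Of 48 other sterol and lipid genes, covering lipogenic enzymes, SREBP processing, the isoprenoid branch, sterol uptake and oxysterols, all were tested and 1 was called in 1 of the 18 contrasts. Gramd1a, which carries cholesterol from the plasma membrane to the endoplasmic reticulum, was lower in trained Tau mice than in trained control mice. It lay at 82.3, 97.3, 92.3 and 87.4 CPM, below every control (127, 130, 114, 138 and 108), with a log2 change of -0.46 (SE 0.11, edgeR adjusted p = 0.0487). The call held in 6 of 20 alternatives, DESeq2 among them (adjusted p = 0.00820). It was lost without any 1 of the 4 Tau trained libraries or of control trained replicates 1 to 4 (edgeR adjusted p = 0.0644 to 0.223), without the library labelled Tau trained replicate 4 at -0.45 (edgeR adjusted p = 0.103). It was also lost with the oligodendrocyte score (-0.31, edgeR adjusted p = 0.537). Cyp27a1, a mitochondrial sterol hydroxylase, came nearest in Tau carriers, at 0.43 (SE 0.11, edgeR adjusted p = 0.0504). It was called in 16 of 46 alternatives, but with the oligodendrocyte score as a covariate its log2 change was 0.037 (edgeR adjusted p = 0.926). In the same contrast 9 of 12 lipogenic genes were above 0, with a median of 0.031. In APP carriers 4 of 12 lipogenic genes were above 0, with a median of -0.013, and Lipa, the lysosomal lipase, came nearest of the 48, at 0.17 (SE 0.061, edgeR adjusted p = 0.330). With training over all genotypes it was Osbp, an oxysterol-binding protein, at 0.051 (SE 0.021, edgeR adjusted p = 0.575).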

How the data were processed

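Each input fraction, a post-mitochondrial supernatant, gave 1 poly(A) library from 100 ng RNA. The authors deposited 1 table of raw counts per gene and library, without normalization. The submitters' processing notes name Trimmomatic 0.39 as a tool and mm39 as the build. Which aligner, counter and annotation were used, and whether strand was, is not stated in the labels, so overlapping and antisense genes cannot be told apart.

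Counts were filtered with filterByExpr (minimum count 10, minimum total 15), scaled by TMM and fitted over all 8 groups with edgeR 4.0.16 (quasi-likelihood, robust, R 4.3.3), with p-values adjusted by Benjamini-Hochberg over all tested genes and called at 0.05. The steps were tested on simulated data. CPM use TMM-scaled totals, and log2 CPM a prior count of 2. Depth of 69150326 to 124787108 counts left at least 545 counts per member and library. No 2 of the 68 same-group pairs of libraries were identical. Lengths came from GENCODE annotation of GRCm38 and serve only levels per kilobase and length slopes.

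Members and gene lists were chosen with earlier results of these data known. Values with SE and adjusted p are named for members past the threshold and for up to 3 members of smallest p in each contrast. Other sterol genes are named when called, or as the smallest p of each of the 3 averaged contrasts. Alternatives were RLE scaling, no filter, a replicate block, library number, choroid plexus, oligodendrocyte, microglia and length slope covariates, fits of the compared groups alone, DESeq2 1.42.0 and leaving out libraries.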

Additional observations from a re-analysis of the deposited data

Results flagged for a closer look

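In 174 sets of 4 to 6 libraries (each member in each such group), 10 held a library far from the rest by Dixon's criterion, and chance gives about 1 in 20. Control trained replicate 4, which also carried striatal markers, was high for Lss, the lanosterol synthase (33.5 CPM, others 29.2 to 30.03), and for Insig1 (58.2 CPM, others 46.2 to 49.6). Tau naive replicate 2, among the libraries of highest microglia score, was low for Sqle (48.1 CPM, others 59.1 to 61.0) and for Tm7sf2 (7.67 CPM, others 9.49 to 9.83). Tau trained replicate 3 was low for Msmo1 (55.9 CPM, others 63.7 to 64.5), and Tau trained replicate 2 was high for Cyp46a1 (136 CPM, others 124.3 to 125.4).

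Ebp was high in Tau naive replicate 1 (11.3 CPM, others 9.88 to 10.1) and low in APP/Tau naive replicate 5 (8.82 CPM, others 10.7 to 11.4). In APP/Tau naive mice Mvd, the mevalonate diphosphate decarboxylase, was high in replicate 4 (18.6 CPM, others 12.9 to 14.5), and Insig2 was high in replicate 1 (52.7 CPM, others 44.4 to 47.1).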

How the results depend on the processing

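Over 94 results, 11 settings and 36 single libraries left out, most values kept direction and side of the threshold. The count of members called in Tau carriers was 0, but 1 with the length slope covariate (Srebf1, edgeR adjusted p = 0.0155), 1 with DESeq2 (Abca1, adjusted p = 0.0188) and 0 to 1 when single libraries were left out. Abca1 was called without control naive replicate 4, control trained replicate 5, APP trained replicate 3, Tau naive replicate 3, APP/Tau naive replicate 3 or 4 or APP/Tau trained replicate 2 (edgeR adjusted p = 0.0263 to 0.0491), and Srebf1 without control naive replicate 5 (edgeR adjusted p = 0.0444). The median non-additivity of members in naive mice was -0.086, and -0.012 with the choroid plexus covariate; the cause was not tested. Tm7sf2 with training in APP turned from 0.24 to -0.026 without APP trained replicate 1, and single libraries left out gave -0.026 to 0.42; the cause was not tested.

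The labels do not say whether samples that share a replicate number are paired. In none of 10 contrasts did every same-numbered pair correlate above 0.1 (-0.227 to 0.213). Over these contrasts, which share libraries, a sample correlated best with its own number in 8 of 40 cases. A pairing was thus not shown, but 3 to 6 pairs per contrast are too few to exclude it. With a replicate block 0 members were called in every contrast, as without it. Abca1 in Tau carriers then had 0.22 (edgeR adjusted p = 0.0944), and Gramd1a in trained Tau mice had -0.47 (edgeR adjusted p = 0.0566), past the threshold without the block. The smallest count of any member in any library was 545.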
